A study of Homo sapiens with 12 samples.

Results

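AB61 was set directly against tubercidin on the 6 of the series' 12 arrays that carry RNA from cells given either compound. Both are ribonucleosides built on 7-deazaadenosine, in which a carbon replaces the nitrogen at position 7 of adenosine. Tubercidin is 7-deazaadenosine itself, and AB61, 7-(2-thienyl)-7-deazaadenosine, differs from it by a thienyl group at that position. The cells were CCRF-CEM, an established human T-lymphoblastic leukaemia line. The 3 AB61 arrays came from cells given 250 nM and the 3 tubercidin arrays from cells given 550 nM, both for 3 h. Each dose was 5 times that compound's IC50, so the doses were matched by potency and the molar doses differed. Actinomycin D at 1 nM, also 5 times its IC50 for 3 h, and untreated cells (the control) had 3 arrays each. They enter the contrast only through the shared estimate of the spread, and no vehicle is described for the control. The labels call the arrays of a group biological replicates and say nothing more of separate cultures, so p-values measure the spread between these samples. The question is whether the added thienyl group went with a different early RNA profile.

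As background, adenosine analogues enter cells through equilibrative and concentrative nucleoside transporters and are phosphorylated by adenosine kinase. Tubercidin is a classical example whose phosphates enter the adenine nucleotide pools and nucleic acids and disturb RNA synthesis and processing. Actinomycin D intercalates into DNA and blocks transcription. Short-lived messages, such as those of immediate early genes, are the first to decline when transcription stops.

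Levels are log2 RMA values, so a difference of 1 is a 2-fold difference, and the values of different genes are not compared with each other. A gene here is the brightest probe set with a single gene symbol, which gave 14232 genes. Correlations between the 6 arrays lay between 0.983 and 0.995. The median SD of a gene was 0.19 over the AB61 arrays and 0.13 over the tubercidin arrays, and 67.4% of genes had the larger SD in AB61. Of the markers of the T lineage, 14 of 15 were measured, with mean levels of 5.74 (RAG1) to 12.4 (CD3D). The 8 measured of 10 markers of other blood lineages had mean levels of 3.41 (LYZ) to 7.54 (CD79A). Without detection calls, and with ranges that overlap, these levels do not settle which lineage's RNA was present. Summed over its list, the T lineage level was 127.7 to 131.5 on AB61 arrays and 128.5 to 131.8 on tubercidin arrays. The summed level of the other lineages was 44.1 to 47.2 on AB61 arrays and 43 to 44.8 on tubercidin arrays.

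No gene separated AB61 from tubercidin after adjustment for multiple tests. In limma's moderated test over all 14232 genes, 0 (0%) passed a Benjamini-Hochberg adjusted p of 0.05, and the lowest adjusted p was 0.772. At an unadjusted p under 0.05 there were 721 genes (5.07%), 448 higher (3.15%) and 273 lower (1.92%) in AB61. All 3 AB61 arrays lay beyond all 3 tubercidin arrays in 857 genes (6.02%), 533 above (3.75%) and 324 below (2.28%). In the same fit AB61 against control had 24 genes past the threshold (0.169%) and tubercidin against control had 13 (0.0913%). Without the second AB61 array there were 294 genes at that unadjusted p, and without the third AB61 array 3651. Weighting the arrays by an estimate of their quality gave 2361 genes past the threshold, 1392 higher and 969 lower. That estimate stopped before it converged and gave the first AB61 array a weight of 5.14, against 0.383 and 0.187 for the other two. Weights estimated gene by gene gave 0 genes past the threshold. A fit with a block for replicate number on all 12 arrays also gave 0, with a lowest adjusted p of 0.0589 in limma.

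Each gene's 95% interval, not adjusted for multiple tests, gives the range of differences these arrays leave possible for that gene. The 95% interval of the difference lay within 1 on the log2 scale, that is within 2-fold in either direction, in 14058 genes (98.8%), and in 174 it did not. Against control, where genes did pass the threshold, this share was close, at 97.54% for AB61 and 98.15% for tubercidin. A share this high therefore does not set the direct contrast apart. In the median the interval of AB61 minus tubercidin reached 0.28 to either side. The estimate itself reached 2-fold in 3 genes, RRH, OR52H1 and TAS2R4, and all 3 were lower in AB61. A failure to pass the threshold does not show that the compounds act alike, and smaller differences remain possible within these intervals.

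Among the 12 genes with the smallest unadjusted p whose AB61 arrays all lay below the tubercidin arrays were TXNIP and CHAC1. TXNIP encodes thioredoxin-interacting protein, an arrestin-like protein that restrains glucose uptake and binds thioredoxin. CHAC1 encodes a glutathione-degrading enzyme induced by ATF4, the transcription factor of the integrated stress response. Their promoters are shown because both genes are known to be induced through elements there. Each sequence is the 250 bases before the annotated start in RefSeq, build GRCh38.p14, read along the gene's strand. For TXNIP these are chr1:145996580-145996829 on the minus strand, from the outermost of 2 listed starts, and for CHAC1 chr15:40953221-40953470 on the plus strand. Capitals mark CACGAG in TXNIP, the half-site of the carbohydrate response element known there, and TTGCATCA in CHAC1.
TXNIP: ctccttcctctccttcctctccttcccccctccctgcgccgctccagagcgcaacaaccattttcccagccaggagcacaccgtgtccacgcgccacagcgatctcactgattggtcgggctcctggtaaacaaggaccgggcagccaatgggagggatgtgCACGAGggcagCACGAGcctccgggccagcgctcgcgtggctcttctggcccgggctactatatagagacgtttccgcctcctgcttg
CHAC1: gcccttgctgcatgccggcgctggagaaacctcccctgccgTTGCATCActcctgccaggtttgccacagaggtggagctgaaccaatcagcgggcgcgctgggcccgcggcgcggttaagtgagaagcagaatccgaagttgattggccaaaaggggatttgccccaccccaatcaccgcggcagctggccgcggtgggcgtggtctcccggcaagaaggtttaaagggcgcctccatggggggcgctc
The TXNIP window holds CACGAG beginning 88 and 77 bases before the start. On either strand, CACGAG occurs in 5.58% of 35116 RefSeq promoter windows, and the spaced pair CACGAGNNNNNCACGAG in 0.0057%. TTGCATCA in CHAC1, 209 bases before the start, is the reverse complement of TGATGCAA, a composite element that ATF4 and C/EBP factors can bind, found in 0.772% of windows on either strand. These matches describe the letters of the windows and were searched after the values were seen.

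TXNIP had levels of 9.37, 9.52 and 10.07 on AB61 arrays, against 10.61, 10.44 and 10.82 on tubercidin arrays. Every AB61 array lay below every tubercidin array. The difference was -0.97 (95% interval -1.41 to -0.54), a level 1.96-fold higher in tubercidin, with an unadjusted p of 0.000325 and an adjusted p of 0.772 in limma. The compounds' means lay on opposite sides of the control, at -0.45 for AB61 and 0.52 for tubercidin, and neither difference from control passed (adjusted p 0.397 and 0.421 in limma). Of the related arrestin genes, ARRDC3 differed by -0.32 (-0.82 to 0.19) and ARRDC4 by 0.05 (-0.26 to 0.37).

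CHAC1 had levels of 6.89, 7.27 and 7.31 on AB61 arrays, against 7.99, 7.83 and 8.22 on tubercidin arrays, again without overlap. The difference was -0.86 (-1.30 to -0.42), with an unadjusted p of 0.000962 and an adjusted p of 0.793 in limma. Against control CHAC1 was at -1.05 in AB61 (adjusted p 0.0621), -0.20 in tubercidin (adjusted p 0.933) and -1.37 in actinomycin D, which passed (adjusted p 0.0345, limma). Other genes of the integrated stress response had intervals that included 0. ATF4 itself had a difference of -0.26 (-0.55 to 0.04), ASNS, an asparagine synthetase, of 0.01 (-0.24 to 0.26), and TRIB3, a pseudokinase, of 0.12 (-0.23 to 0.47). DDIT4, an inhibitor of mTOR signalling, had a difference of -0.56 (-1.13 to 0.003). Its AB61 levels of 7.26, 7.32 and 7.71 overlapped the tubercidin levels of 7.38, 8.40 and 8.19. Over the 33 measured of 35 genes of the ATF4 list the median difference was -0.08, beside 0.04 over all genes, with 15 members above 0 and 18 below. Centring the arrays on ribosomal protein genes raised both medians alike, to 0.03 for the list and 0.145 for all genes.

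**Figure D1:**
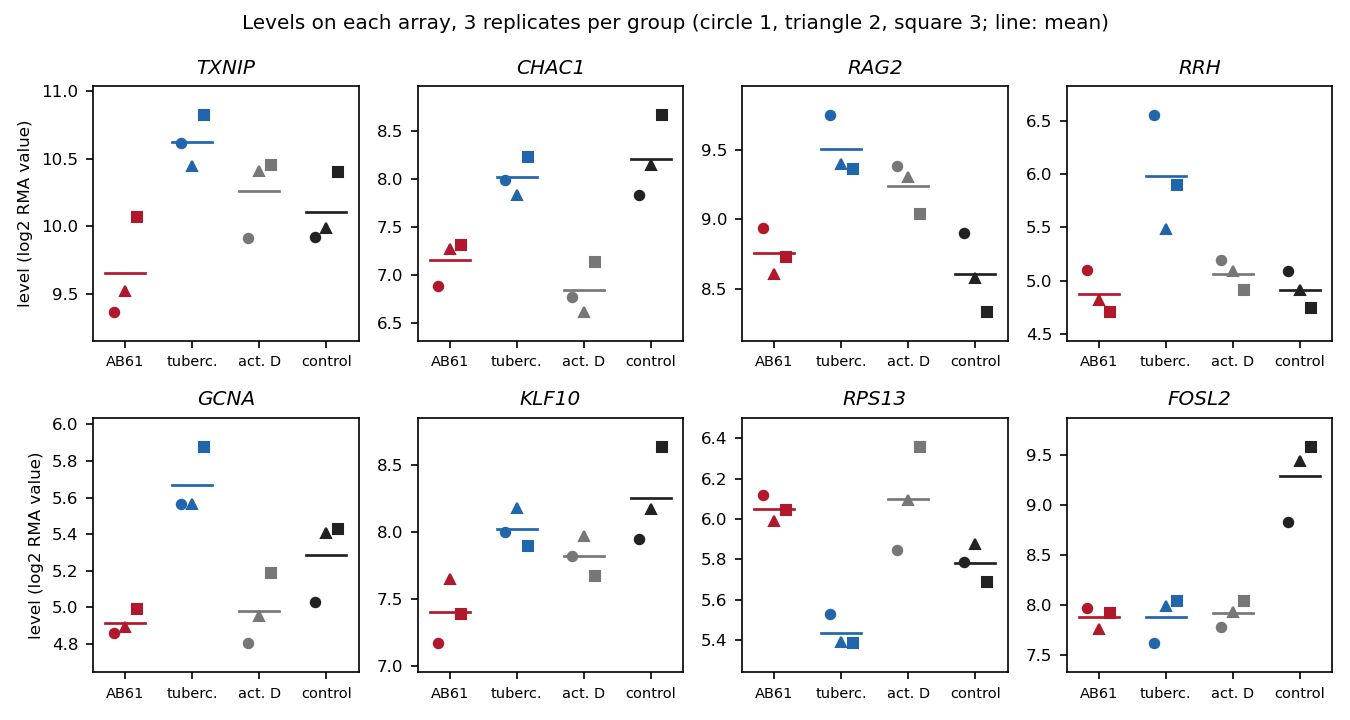
Levels (log2 RMA values) of 8 genes on every array, by group, with the replicate as the marker and the group mean as a line. AB61 and tubercidin arrays do not overlap in the first 7 genes, while for FOSL2 they overlap and both lie below every control array.

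RAG2, a subunit of the recombinase that assembles antigen receptor genes in immature lymphocytes, had levels of 8.94, 8.61 and 8.73 on AB61 arrays, against 9.75, 9.40 and 9.36 on tubercidin arrays. The groups did not overlap, and the difference was -0.75 (-1.09 to -0.40, unadjusted p 0.000462 in limma). AB61 lay 0.15 above the control and tubercidin 0.90 above it, neither past the threshold. Its partner RAG1 differed by -0.19 (-0.56 to 0.19). PCF11, a subunit of the complex that cleaves pre-mRNA and ends transcription, had levels of 8.96, 9.04 and 9.25 on AB61 arrays, against 9.54, 9.43 and 9.63 on tubercidin arrays. The PCF11 difference was -0.45 (-0.68 to -0.22). AB61 lay 0.02 above the control and tubercidin 0.47 above it. RSRC2, an arginine- and serine-rich nuclear protein gene, differed by -0.48 (-0.74 to -0.22), with values against control of -0.55 in AB61 and -0.07 in tubercidin.

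The other genes of this group were of mixed function. RRH, a retinal opsin gene, had levels of 5.10, 4.82 and 4.71 on AB61 arrays, against 6.55, 5.49 and 5.90 on tubercidin arrays. Its difference of -1.10 (-1.56 to -0.64) came with values against control of -0.04 in AB61 and 1.06 in tubercidin. GCNA, a germ cell nuclear protein gene, had the lowest p of all genes (unadjusted 0.000112, limma), with 4.86, 4.89 and 4.99 on AB61 arrays against 5.57, 5.56 and 5.88 on tubercidin arrays. Both RRH and GCNA were dim, and without detection calls it is not known whether they gave a signal above background. NDUFAF5 and MKKS, an assembly factor of respiratory complex I and a chaperonin-like protein, differed by -0.48 and -0.45. ITGB1BP2, ERP27 and AKAP5 differed by -0.61, -0.68 and -0.69. With any 1 array left out, the difference stayed between -1.18 and -0.83 for TXNIP, between -0.95 and -0.73 for CHAC1 and between -0.84 and -0.62 for RAG2.

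The 12 genes at the other end, with all AB61 arrays above all tubercidin arrays, were also of mixed function. The probe set annotated to RPS13, a protein of the small ribosomal subunit, had levels of 6.12, 5.99 and 6.04 on AB61 arrays. On tubercidin arrays its levels were 5.53, 5.39 and 5.39. The difference was 0.62 (0.35 to 0.88, unadjusted p 0.000236 in limma). Probe set numbers follow genome order among the named genes, and this number falls between those of genes on chromosomes 1 and 2. RPS13 itself lies on chromosome 11, so whether this probe set measures RPS13 is not known. Of 30 genes of cytosolic ribosomal proteins with a single-symbol probe set, 8 had differences above 0 and 22 below, with a median of -0.08. APOBR, an apolipoprotein B receptor, differed by 0.92 (0.44 to 1.41). The others included the odorant and pheromone receptor genes OR51G2, OR56B1 and VN1R5, at 0.53, 0.62 and 0.76, and the testis antigen gene MAGEB18 at 0.54. TLR6, MBL2, BNC2, SYNPR, CDC42EP1 and ATXN7L1 differed by 0.34 to 0.67. Several of these genes were dim. MAGEB18, SYNPR, BNC2, MBL2 and TLR6 had mean levels of 3.85 to 4.38 on AB61 arrays and 3.43 to 3.83 on tubercidin arrays. APOBR was at 4.82 and 3.90, and CDC42EP1, the brightest of the 12, at 6.80 and 6.39. No detection calls were used, so whether these genes or the odorant and pheromone receptor genes gave a signal above background is not known.

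The sign of the difference followed the level. Genes were divided by mean level over the 12 arrays into 5 equal parts, from dim to bright. The median difference was 0.10, 0.12, 0.06, -0.03 and -0.07 in that order, and 81.6%, 80%, 64.7%, 39.6% and 28.5% of genes lay above 0. Single arrays carried this unequally. Against the mean of the 6 arrays, the dimmest part had medians of 0.06, 0.17 and -0.07 on AB61 arrays, against -0.02, -0.04 and -0.09 on tubercidin arrays. The brightest part had -0.04, -0.11 and 0.04 on AB61 arrays, against 0.01, 0.05 and 0.03 on tubercidin arrays. The second AB61 array was thus highest among dim genes and lowest among bright ones, and the third AB61 array lay below the mean of the 6 among dim genes and above it among bright ones. Of 448 genes higher at an unadjusted p under 0.05, 183 lay in the dimmest part and 8 in the brightest. Removing each array's trend with level left 303 genes higher and 337 lower at that p.

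**Figure D2:**
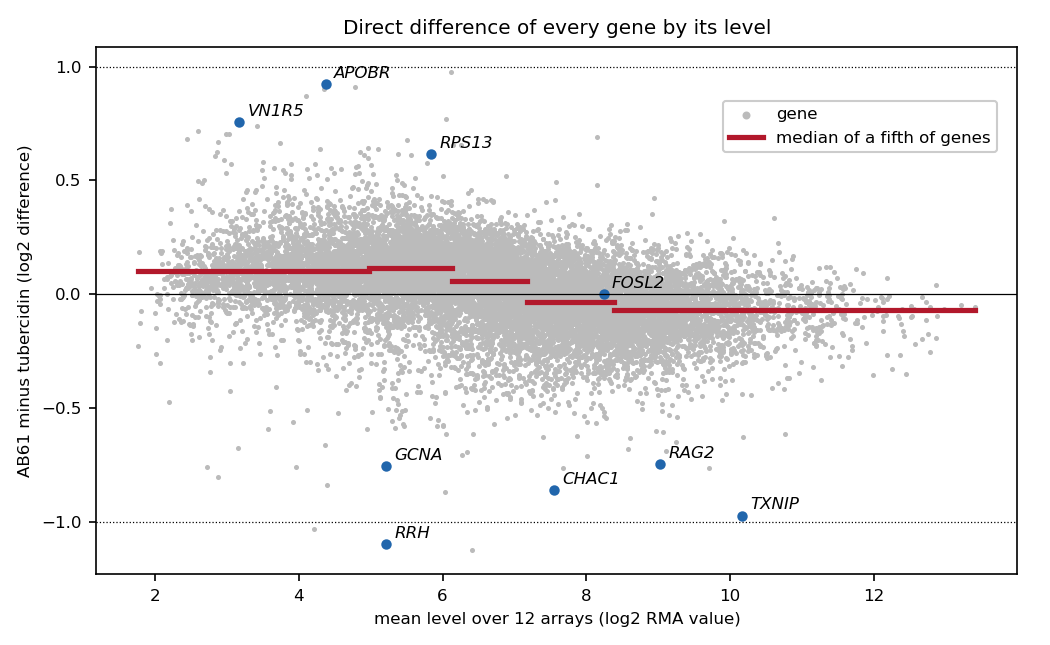
Difference of AB61 minus tubercidin (log2) for each of 14232 genes against its mean level over 12 arrays, with the medians of 5 equal parts of the genes as bars and dotted lines at 2-fold. Medians run from 0.10 in the dimmest part to -0.07 in the brightest, and few genes approach 2-fold.

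Some genes well apart from control had close levels under both compounds. Genes chosen for their distance from the same control arrays under both lean towards close levels, so this closeness gives no support. FOSL2, a subunit of the AP-1 transcription factor, had levels of 7.96, 7.75 and 7.92 on AB61 arrays, against 7.62, 7.98 and 8.03 on tubercidin arrays. The groups overlapped, with a difference of 0.00 (-0.38 to 0.38). Its difference from control was -1.40 in both, past the threshold each time (adjusted p 0.0166 for AB61 and 0.00826 for tubercidin, limma). EFNB2, an ephrin ligand, differed by -0.01 (-0.25 to 0.23), VEGFA, the vascular growth factor, by 0.06 (-0.16 to 0.27) and CORO2A, an actin-binding protein, by -0.03 (-0.35 to 0.28). Of genes above control under both compounds, SERPINB8, a protease inhibitor, differed by -0.07 (-0.37 to 0.23) and CHRNA6, an acetylcholine receptor subunit, by -0.16 (-0.41 to 0.10). HEXIM1, which holds the elongation kinase P-TEFb inactive, differed by -0.04 (-0.39 to 0.32). The arrays left wider intervals for EGR1, 0.29 (-0.87 to 1.45), and NR4A1, 0.08 (-0.73 to 0.88), both immediate early transcription factors.

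The 17 genes past the threshold in actinomycin D against control (0.119%) were chosen without the AB61 or tubercidin levels, apart from the shared spread. Of these, 9 were higher and 8 lower after actinomycin D. Their absolute AB61 minus tubercidin difference had a median of 0.10, beside 0.11 over all genes, and the signed median was -0.08. The interval included 0 in 15 of the 17 and excluded it in 2, beside 5.07% of all genes, and lay within 1 in 16, beside 98.8%. The arrays of the compounds did not overlap in 3 of the 17, beside 6.02%. The genes whose interval excluded 0 were CHAC1 and FANCF, a Fanconi anaemia core protein, which differed by -0.32 (-0.57 to -0.07). FANCF levels were 6.24, 6.30 and 6.51 on AB61 arrays, against 6.64, 6.61 and 6.74 on tubercidin arrays.

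Over the 30 genes past the threshold against control for any of the 3 compounds, the difference ran from -0.86 (CHAC1) to 0.33 (RHBDD2). Its interval lay within 1 in 29, beside 98.8% of all genes, and excluded 0 in 8, beside 5.07%. A gene chosen by its distance from control under AB61 leans towards a difference of the same sign, and the comparisons share the control arrays, so this count gives no support. RUNX2, a Runt-family transcription factor, had levels of 8.52, 8.56 and 8.31 on AB61 arrays, against 8.17, 8.21 and 8.25 on tubercidin arrays. RUNX2 lay 0.66 above the control in AB61 and 0.40 in tubercidin, a difference of 0.26 (0.03 to 0.48). KCNRG, a regulator of potassium channels, was at 0.60 in AB61 and 0.94 in tubercidin, a difference of -0.34 (-0.57 to -0.12).

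**Figure D3:**
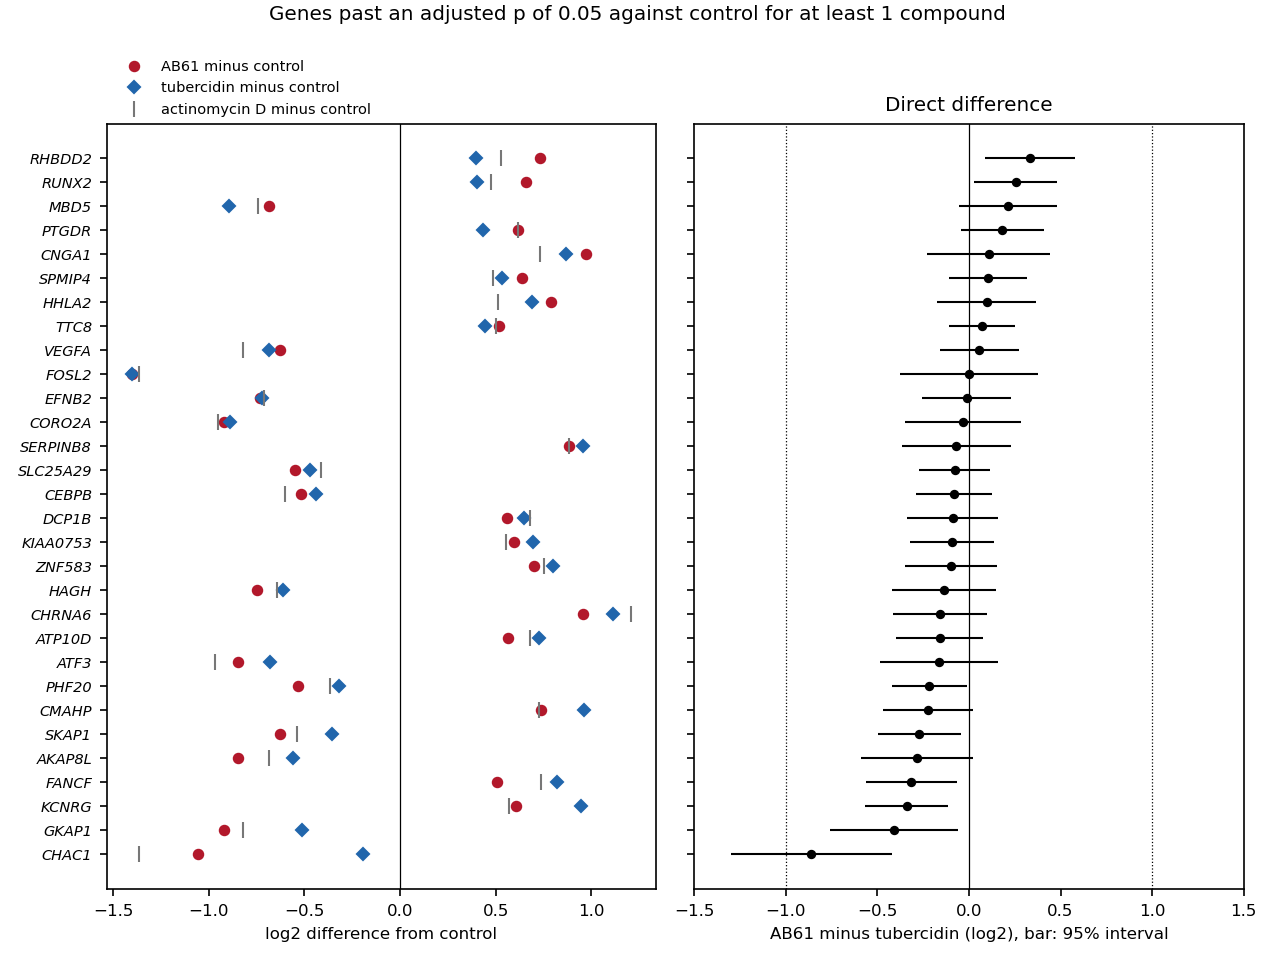
The 30 genes past an adjusted p of 0.05 against control for at least 1 compound. The left panel gives each compound's log2 difference from control and the right panel AB61 minus tubercidin (log2) with its 95% interval; only the CHAC1 interval reaches beyond 1.

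Genes that handle adenosine analogues had similar numbers above and below 0. In the list of nucleoside uptake and adenosine metabolism, 35 of 42 genes were measured, 18 above 0 and 17 below, with a median of 0.03 (-0.02 with level trends removed). All 35 intervals lay within 1, beside 98.8% of all genes. By the arrays, 2 members were separated below (5.71%, beside 2.28% of all genes) and 0 above. The equilibrative transporter gene SLC29A1 had levels of 9.27, 8.60 and 8.59 on AB61 arrays, against 9.0, 8.92 and 8.36 on tubercidin arrays, overlapping, with a difference of 0.06 (-0.50 to 0.63). SLC29A2 differed by 0.15 (-0.17 to 0.47) and the concentrative transporter gene SLC28A3 by 0.13 (-0.11 to 0.37). ADK, adenosine kinase, had 9.48, 9.22 and 9.35 on AB61 arrays, against 9.82, 9.49 and 9.34 on tubercidin arrays, a difference of -0.20 (-0.49 to 0.09). ADA, adenosine deaminase, differed by -0.13 (-0.39 to 0.12) and AHCY, which hydrolyses S-adenosylhomocysteine, by -0.18 (-0.46 to 0.10). HPRT1, the salvage enzyme of hypoxanthine and guanine, was the list's 1 gene lower at an unadjusted p under 0.05 (2.86%, beside 1.92% of all genes). It had levels of 9.49, 9.55 and 9.91 on AB61 arrays, against 10.05, 10.20 and 10.00 on tubercidin arrays, a difference of -0.44 (-0.74 to -0.13). Of the adenosine receptor genes, ADORA1 differed by 0.31 (-0.003 to 0.62) and ADORA3 by 0.30 (0.05 to 0.55).

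Several groups of bright genes lay below 0 together, although no member passed the adjusted test. In the cholesterol synthesis list, 16 of 24 genes were measured, with a median of -0.19, 3 above 0 and 13 below. At an unadjusted p under 0.05, 4 were lower (25%, beside 1.92% of all genes). SQLE, squalene epoxidase, had levels of 8.64, 8.40 and 8.69 on AB61 arrays, against 9.33, 9.36 and 8.85 on tubercidin arrays, without overlap, and differed by -0.60 (-1.01 to -0.19). MSMO1, a sterol demethylating oxidase, differed by -0.63 (-1.07 to -0.19), HMGCS1, which makes HMG-CoA, by -0.48 (-0.89 to -0.07) and NSDHL, a sterol dehydrogenase, by -0.33 (-0.63 to -0.04). PMVK and FDPS, enzymes of the mevalonate route, were the highest members at 0.09 and 0.06. The median of the list stayed below 0 under each scaling of the arrays and with each array left out, between -0.24 and -0.09.

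Replication-dependent histone genes had a median of -0.20, with 5 of 49 above 0 and 44 below, and 8 lower at an unadjusted p under 0.05 (16.3%, beside 1.92% of all genes). By the arrays, 1 was separated (2.04%, beside 2.28%). H2AC15 had levels of 10.56, 10.33 and 10.55 on AB61 arrays, against 10.99, 11.44 and 10.85 on tubercidin arrays, and was the only histone gene whose arrays did not overlap. The list median on single arrays was -0.03, -0.36 and 0.08 in AB61, against 0.04, 0.36 and -0.07 in tubercidin, so the second array of each compound lay farthest out. Without the second AB61 array the list median was -0.08, and without the second tubercidin array it was also -0.08. Near-identical histone copies may share probes, so single members are uncertain.

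RNA-binding splicing factors, the list of SR proteins, CLK kinases and hnRNP proteins, had a median of -0.16, with 2 of 27 above 0 and 25 below. TRA2A, HNRNPA2B1 and HNRNPDL were lower at an unadjusted p under 0.05 (11.1%, beside 1.92% of all genes), at -0.42, -0.31 and -0.27. By the arrays, 2 of the 27 members were separated below (7.41%, beside 2.28% of all genes), HNRNPDL among them. HNRNPDL levels were 9.30, 9.14 and 9.40 on AB61 arrays, against 9.55, 9.63 and 9.47 on tubercidin arrays, without overlap. In homologous recombination and Fanconi anaemia, 24 genes had a median of -0.11, and 4 had AB61 arrays all below the tubercidin arrays (16.7%, beside 2.28% of all genes). The list median was -0.26 without the third AB61 array and -0.07 without the first. The separated genes were RAD51C at -0.36 (-0.60 to -0.11), FANCF, CHEK2 at -0.26 (-0.49 to -0.03) and PALB2 at -0.18 (-0.41 to 0.05). Genes of the respiratory chain had a median of -0.12 (15 of 67 above 0), mitochondrial ribosomal proteins -0.14 (14 of 65), heat shock proteins -0.14 (4 of 18) and aminoacyl-tRNA synthetases -0.11 (1 of 18). Without the second tubercidin array the mitochondrial ribosomal median was 0.004 and the respiratory chain median -0.015. With each array's trend with level removed, the medians were -0.15 for cholesterol synthesis, -0.17 for histones, -0.09 for splicing factors, -0.09 for recombination, -0.05 for the respiratory chain and -0.04 for aminoacyl-tRNA synthetases. Their relation to level was not tested further.

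Immediate early and short-lived regulators lay slightly above 0, with a median of 0.11, 33 of 44 above 0 and 11 below. Against control the list's median was -0.26 in AB61 and -0.27 in tubercidin. By the arrays, 3 of the 44 members were separated above, beside 3.75% of all genes, and 2 below (4.55%, beside 2.28%). Its 3 members at an unadjusted p under 0.05 were all lower (6.82%, beside 1.92% of all genes). KLF10, a Krüppel-like repressor, had levels of 7.17, 7.65 and 7.39 on AB61 arrays, against 8.0, 8.18 and 7.89 on tubercidin arrays, without overlap, and differed by -0.62 (-0.99 to -0.25). ID3, an inhibitor of helix-loop-helix factors, differed by -0.57 (-1.03 to -0.11) and SPRY2, an inhibitor of growth factor signalling, by -0.41 (-0.79 to -0.03). DUSP6, a phosphatase of ERK, was the highest of the list at 0.30 (-0.01 to 0.62).

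Lists whose median lay within 0.1 of 0 included p53 targets, with a median of 0.05, genes of the BCL2 family with 0.07, endoplasmic reticulum chaperones with -0.02 and genes of NF-kB and the interferon response with 0.04. RNA polymerase II and Mediator had a median of -0.06, P-TEFb and its partners -0.02, mitosis genes -0.09 and DNA replication genes -0.08. The mitosis list varied between arrays, at -0.22, -0.20 and 0.32 in AB61, against -0.08, 0.05 and 0.14 in tubercidin, and its median was -0.30 without the third AB61 array. The T lineage and NOTCH list had a median of -0.004, with 19 above 0 and 23 below. Markers of B cells, myeloid and erythroid cells lay highest, at 0.17, with 12 of 13 above 0. They lay in the dim range of levels, and their median was 0.10 with the trend removed and 0.06 without the second AB61 array. Among the DNA replication genes, 6 of 42 had AB61 arrays all below the tubercidin arrays (14.3%, beside 2.28% of all genes), while 1 was lower at an unadjusted p under 0.05 (2.38%, beside 1.92%). That gene was PRIM1, a primase subunit, at -0.28 (-0.55 to -0.01).

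**Figure D4:**
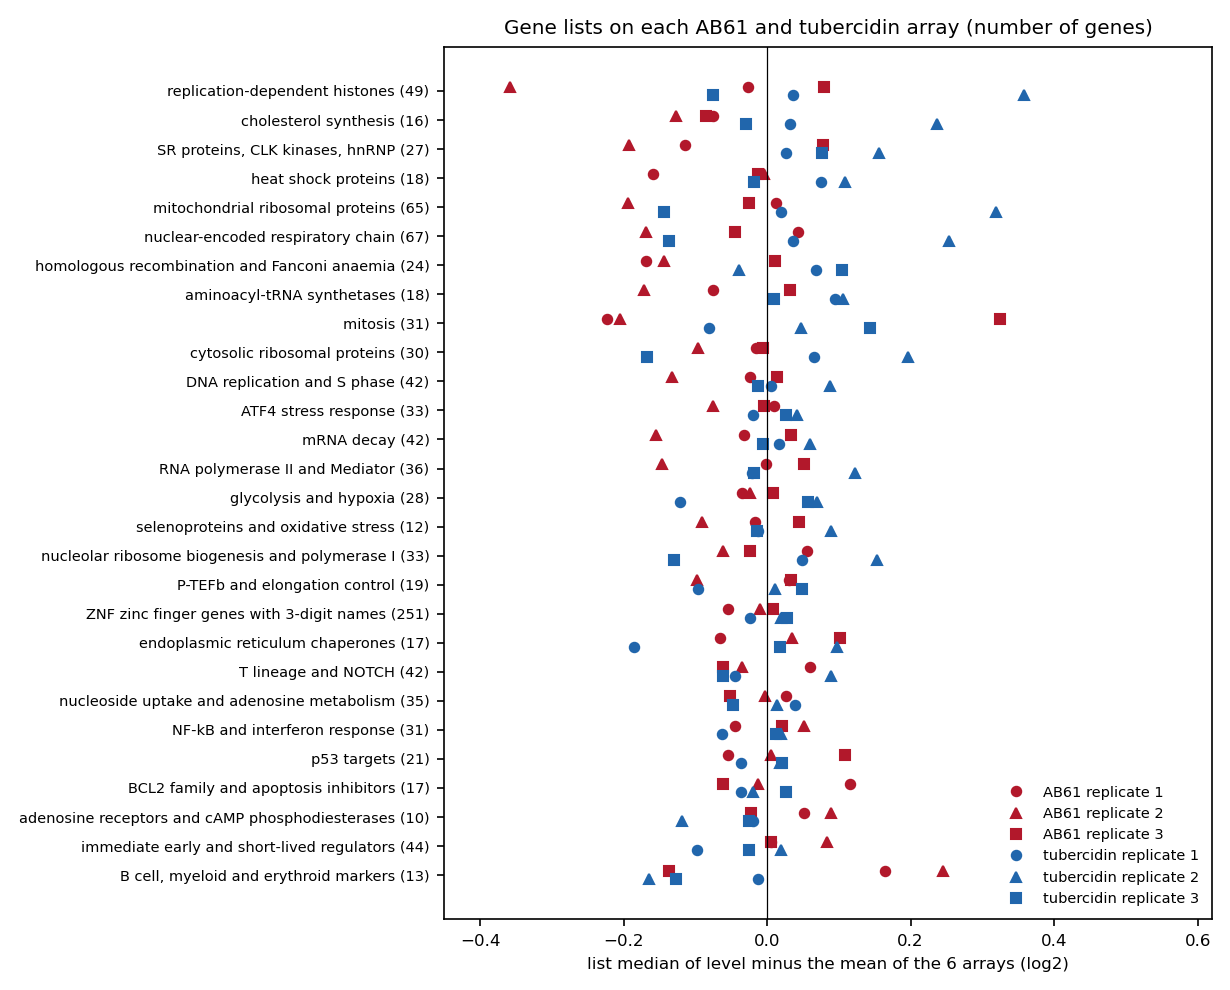
Median of each list's levels on each AB61 and tubercidin array, relative to the mean of the 6 arrays (log2), with the number of measured genes in brackets. Points of both compounds overlap in most lists, and the second arrays lie farthest apart for histones, at -0.36 in AB61 and 0.36 in tubercidin.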

How the data were processed

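RNA of CCRF-CEM cells was hybridised to whole-transcript arrays. The deposited series matrix holds log2 RMA values per transcript cluster, made by the authors with RMA, oligo and limma per the submitters' processing notes, in versions not stated there. RMA equalises the arrays' distributions of probe intensities and thereby hides any global fall in mRNA. The gene levels still differed in spread, with an SD of 1.832 on the second AB61 array and 1.998 on the third. In bulk RNA, fewer cells of a type and less RNA per cell cannot be told apart.

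Of 22011 probe sets, 14432 carried 1 gene symbol, 2408 several and 5171 were not listed. For 197 genes with several, the brightest over the 12 arrays was used. Linear models were fitted in limma 3.58.1 (R 4.3.3) on 4 groups, eBayes without trend (8 residual and 4.91 prior degrees of freedom), with two-sided p-values adjusted by Benjamini-Hochberg over all genes. No filter on dim genes was applied. Precision is limited by having 3 arrays per group.

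The comparison, members and 28 gene lists were chosen with earlier results of these data known. Named were 12 genes per direction with the smallest unadjusted p among those with separated arrays, all genes past the threshold against control, the 2 extreme members per direction of each list and 12 fixed transport, metabolism and regulator genes. Other genes were named after their values were seen. The fit was tested on simulated data. Replicate numbers were not read as pairs in the main fit. Deviations of same-numbered AB61 and tubercidin arrays correlated at 0.195, -0.194 and 0.224. For AB61 and actinomycin D the values were 0.596, -0.056 and 0.498, and for tubercidin and control 0.086, 0.241 and 0.421. The numbers may thus carry a shared effect, and a fit with a replicate block is given below.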

Additional observations from a re-analysis of the deposited data

How the results depend on the processing

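The count of 0 genes past an adjusted p of 0.05 held under each alternative except array weights (2361, lowest adjusted p 0.0131 in limma), and without alternatives also at a threshold of 0.10. Otherwise the lowest adjusted p in limma ran from 0.0589 (replicate block) to 0.9999 (without the second AB61 array), and was 0.0818 with gene by gene weights, so genes pass 0.10 there and under the block. The replicate block on all 12 arrays gave 0 genes past the threshold and 1190 at an unadjusted p under 0.05, 740 higher and 450 lower, and on the 6 arrays alone 0 and 525. Each of the 6 arrays deviated most like an array of its own number, as a hint from the data. The 721 genes at an unadjusted p under 0.05 became 228 (198 higher, 30 lower) with arrays centred on ribosomal protein genes, which moved the median of all genes to 0.145, 355 without the dimmest genes (share 0.333), 395 in the 6 arrays alone, 1096 over all probe sets, 5270 with array weights and 3494 with gene by gene weights, an alternative added after seeing the data. The split into higher and lower was 356 and 320 after repeated quantile normalization, 444 and 372 after median centring, and 303 and 337 with level trends removed. With 1 array left out the count ran from 294 (without the second AB61 array) to 3651 (without the third AB61 array), with 402 without the first AB61 array and 445 without the second tubercidin array. The 857 genes with separated arrays became 376 with ribosomal centring, 466 without the dimmest genes and 1477 over all probe sets, and ran from 857 to 6321 (without the third AB61 array) with 1 array left out, with 1473 without the first AB61 array and 2197, 1843 and 1633 without the first, the second and the third tubercidin array. Fewer arrays make separation easier. Of the 17 actinomycin D genes, the 2 whose interval excluded 0 became 1 with ribosomal centring, 7 with array weights, 5 with gene by gene weights, and 1 to 3 with 1 array left out. The count of intervals within 1 stayed within 1.5 times under each alternative. Of the differences of named genes, 27 passed the threshold only with array weights and none passed with the opposite sign. The causes were not tested.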
